A study of Capra hircus with 8 samples.

Results

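KLF4, KLF5 and KLF17 are 3 Krüppel-like transcription factor genes, chosen by symbol among the 22107 entries of the messenger RNA table of goat (Capra hircus) 8-cell embryos. Each symbol occurred once in that table, and every library had a value above 0 for each gene. Krüppel-like factors bind GC-rich and CACCC-type DNA sequences through 3 zinc fingers at the C-terminal end of the protein, and they activate or repress transcription depending on the member and its partners. KLF4 is one of the factors used to reprogramme somatic cells to pluripotency. In mouse embryos KLF5 is needed for the first cell lineages and for blastocyst formation. KLF17 is known from human embryos as a factor of the 8-cell stage and of naive pluripotent cells.

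The embryos were made by nuclear transfer (SCNT), where a somatic donor nucleus is introduced into an enucleated egg, or by in vitro fertilisation (IVF). They were lysed directly, and polyadenylated RNA was converted to cDNA by Smart-seq2, a full-length protocol for very small amounts of RNA. The groups were SCNT 8-cell and IVF 8-cell with 2 libraries each for messenger RNA, and SCNT 4-cell and IVF 4-cell with 2 libraries each, for which only long non-coding RNA (lncRNA) values were used here. The labels give no donor cell type, breed, number of embryos per library or source of the eggs, and do not say whether replicates are separate pools, so p-values measure only the spread between these libraries, which may be technical.

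All 3 genes had their highest level in SCNT replicate 2, followed by SCNT replicate 1, IVF replicate 1 and IVF replicate 2. The mean levels in SCNT embryos were 4.64 times those in IVF embryos for KLF4, 4.11 times for KLF17 and 2.497 times for KLF5. None of the 3 differences passed the threshold, an adjusted p of 0.05 over all 10303 tested genes in limma, against 3.86% of all tested genes that passed in either direction. Before adjustment, 2 of the 3, KLF4 and KLF17, had a limma p under 0.05, as did 25.4% of all tested genes on the higher side. In either direction, 3200 of the 10303 tested genes had such a p. Levels are in FPKM, fragments per kilobase of transcript per 1000000 fragments, as the authors deposited them. In such bulk libraries, fewer cells that express a gene and less RNA per cell cannot be told apart.

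KLF4 had 20.0 and 39.4 FPKM in SCNT replicates 1 and 2, against 8.05 and 4.76 FPKM in IVF replicates 1 and 2. Both SCNT libraries were above both IVF libraries, and the lower SCNT value was 2.49 times the higher IVF value. The mean was 29.7 ± 13.7 FPKM in SCNT and 6.41 ± 2.33 FPKM in IVF embryos (SD, n = 2 each). On the scale of log2(FPKM + 1), which understates the change of genes at low level, the difference was 2.01 ± 0.50 (SE), with a 95% interval of 0.87 to 3.16. The unadjusted limma p was 0.00349 and the adjusted p was 0.058. The difference lay above that of all but 4.26% of tested genes. The call was gained without SCNT replicate 1 (adjusted p = 0.0174) and when each library was rescaled to the same FPKM total (0.0297).

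KLF17 had 12.9 and 31.7 FPKM in SCNT replicates 1 and 2, against 8.89 and 1.96 FPKM in IVF replicates 1 and 2. The groups did not overlap, but SCNT replicate 1 was only 1.45 times IVF replicate 1. The mean was 22.3 ± 13.3 FPKM in SCNT and 5.42 ± 4.90 FPKM in IVF embryos (SD, n = 2 each). The log2 difference was 1.98 ± 0.67 (SE), with a 95% interval of 0.44 to 3.52. Its adjusted limma p was 0.0971. The size of the difference moved with each library left out. It was 1.11 without IVF replicate 2 and 2.85 without IVF replicate 1, and 1.36 without SCNT replicate 2 and 2.60 without SCNT replicate 1.

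KLF5 had 4.60 and 13.1 FPKM in SCNT replicates 1 and 2, against 4.16 and 2.93 FPKM in IVF replicates 1 and 2. SCNT replicate 2 stood apart from the other libraries, which lay close together. The mean was 8.84 ± 5.997 FPKM in SCNT and 3.54 ± 0.868 FPKM in IVF embryos (SD, n = 2 each). The log2 difference was 0.98 ± 0.55 (SE), with a 95% interval of −0.28 to 2.24 and an adjusted limma p of 0.255. It was 0.32 without SCNT replicate 2, which is 0.01 below the median of all tested genes in that fit, and 1.65 without SCNT replicate 1.

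**Figure D1:**
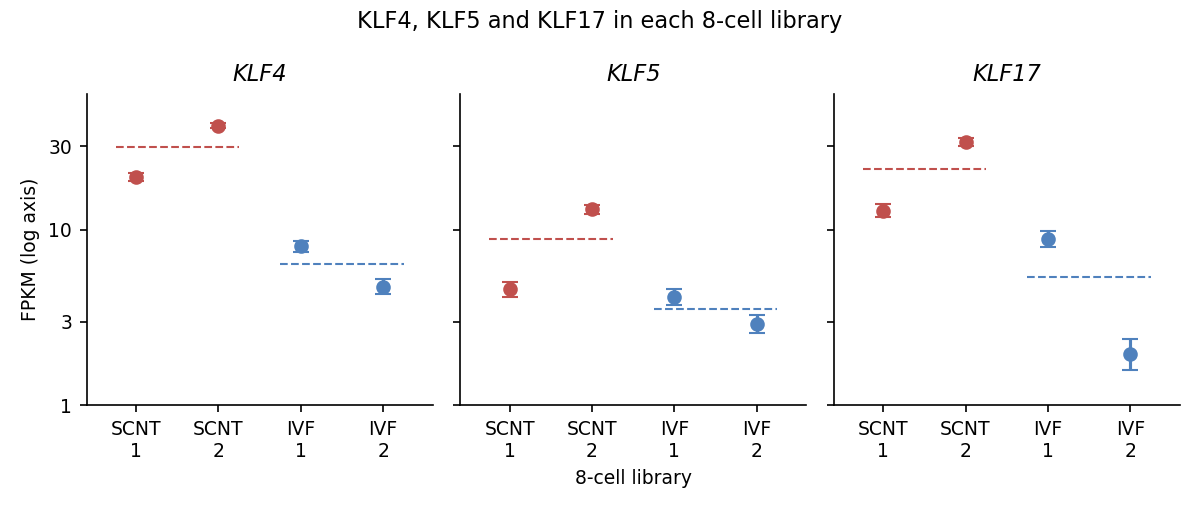
FPKM (log axis) of KLF4, KLF5 and KLF17 in SCNT libraries 1 and 2 (red) and IVF libraries 1 and 2 (blue) at the 8-cell stage. Points are single libraries, bars are 95% Poisson intervals for counting error only, and dashed lines are group means. KLF4 spans 20.0 and 39.4 in SCNT against 8.05 and 4.76 in IVF, while KLF5 in SCNT replicate 1 (4.60) lies close to IVF replicate 1 (4.16).

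The whole read numbers behind these values were recovered from the steps between FPKM values, as the smallest set that gave whole numbers in all 4 libraries within 0.001 read. The totals behind the scaling differed by at most 1.10 times between libraries. For KLF4 they were 1726 and 3409 reads in SCNT replicates 1 and 2, against 672 and 438 reads in IVF replicates 1 and 2. KLF17 had 585 and 1444 reads in SCNT, against 390 and 95 reads in IVF. KLF5 had 406 and 1159 reads in SCNT, against 355 and 276 reads in IVF. The 95% Poisson interval was widest for KLF17 in IVF replicate 2, at 1.59 to 2.40 FPKM. These intervals cover counting error only, since copies made by PCR cannot be told from separate molecules.

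Counting error was smaller than the gap between replicates for all 3 genes. In KLF17 the interval of IVF replicate 1 was 8.03 to 9.81 FPKM, clear of that of IVF replicate 2. In KLF5 the intervals of SCNT replicate 1 (4.17 to 5.07 FPKM) and IVF replicate 1 (3.74 to 4.61 FPKM) overlapped. For KLF4 no interval of an SCNT library overlapped one of an IVF library.

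The spread within groups differed between the genes. SCNT replicate 2 was 2.84 times SCNT replicate 1 for KLF5, 2.46 times for KLF17 and 1.97 times for KLF4. On the log2(FPKM + 1) scale these gaps were 1.33, 1.23 and 0.94, against a median absolute gap of 0.63 over all tested genes. Between the IVF libraries, replicate 1 was 4.53 times replicate 2 for KLF17, 1.69 times for KLF4 and 1.42 times for KLF5. The KLF17 gap in IVF was 1.74 on the log2 scale, where the median absolute gap of tested genes was 0.30, and 1.31% of tested genes had a larger one.

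Libraries as a whole also differed. The number of genes at 1 FPKM or more was 9883 and 11025 in SCNT replicates 1 and 2, against 8984 and 9038 in IVF replicates 1 and 2. Tested genes had a median log2 difference of 0.39, and 46.9% of tested genes were higher in both SCNT libraries than in both IVF libraries. The shared absence of overlap in KLF4, KLF5 and KLF17 is therefore a common pattern in this table. The order of libraries shared by the 3 genes was found in 11.5% of tested genes. The differences of all 3 genes also lay above the median of all tested genes after quantile normalization and after rescaling, whereas median centring cannot change that order. After quantile normalization, which brought that median to −0.01, they were 1.64 for KLF4, 1.59 for KLF17 and 0.51 for KLF5.

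The position of each gene within its library does not depend on a common scaling factor. KLF4 was above 70.6% and 81.1% of tested genes in SCNT replicates 1 and 2, against 57.0% and 46.4% in IVF replicates 1 and 2. KLF17 was above 61.9% and 77.5% of them in SCNT, against 59.0% and 27.6% in IVF. KLF5 was above 38.7% and 58.6% in SCNT, against 43.8% and 35.8% in IVF. By this measure KLF4 and KLF17 were placed higher in both SCNT libraries, although for KLF17 SCNT replicate 1 (61.9%) lay close to IVF replicate 1 (59.0%). For KLF5 the groups overlapped, with SCNT replicate 1 below IVF replicate 1. The share of all tested genes placed higher in both SCNT libraries by this measure was not computed, so the separation cannot be called particular to KLF4 and KLF17.

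Ratios between the 3 genes were also taken inside each library. KLF4 was 4.35 and 3.01 times KLF5 in SCNT replicates 1 and 2, against 1.94 and 1.62 times in IVF replicates 1 and 2. The groups did not overlap, the difference in log2(FPKM + 1) was 1.03, and the exact permutation p was 0.333, the smallest that 2 libraries against 2 can give. KLF17 was 0.644 and 0.805 times KLF4 in SCNT, against 1.10 and 0.412 times in IVF, so the IVF values lay on either side of the SCNT values. The corresponding log2 difference was −0.03 (exact permutation p = 1). KLF17 was 2.80 and 2.42 times KLF5 in SCNT, against 2.14 and 0.670 times in IVF (log2 difference 0.998, exact permutation p = 0.333). Without IVF replicate 2 this last difference was 0.32. These 3 ratios were the ones compared, and no p-value was adjusted over them because none could pass.

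Among all KLF genes the order of levels differed between libraries. The table holds 16 of them, and FPKM, being per length, allows levels to be compared between genes. KLF11, which encodes a repressor linked to TGF-β signalling, was the highest KLF gene in every library, at 49.5 and 93.1 FPKM in the SCNT libraries, against 25.3 and 42.4 FPKM in the IVF libraries. Counted from the highest, KLF4 was number 2 in both SCNT libraries, against numbers 6 and 5 in IVF replicates 1 and 2. KLF17 was number 4 and number 3 in SCNT replicates 1 and 2, against numbers 5 and 8 in IVF replicates 1 and 2. KLF5 was number 9 and number 7 in SCNT and likewise number 9 and number 7 in IVF.

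The 3 genes together made up 27.8% and 33.8% of the summed FPKM of KLF genes in SCNT replicates 1 and 2, against 23.8% and 10.3% in IVF replicates 1 and 2. The sum itself was 135 and 249 FPKM in SCNT, against 88.7 and 93.7 FPKM in IVF. KLF4 alone held 14.9% and 15.8% in SCNT, against 9.08% and 5.08% in IVF. KLF5 held 3.41% and 5.26% in SCNT, against 4.69% and 3.12% in IVF, so its share overlapped between the groups.

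**Figure D2:**
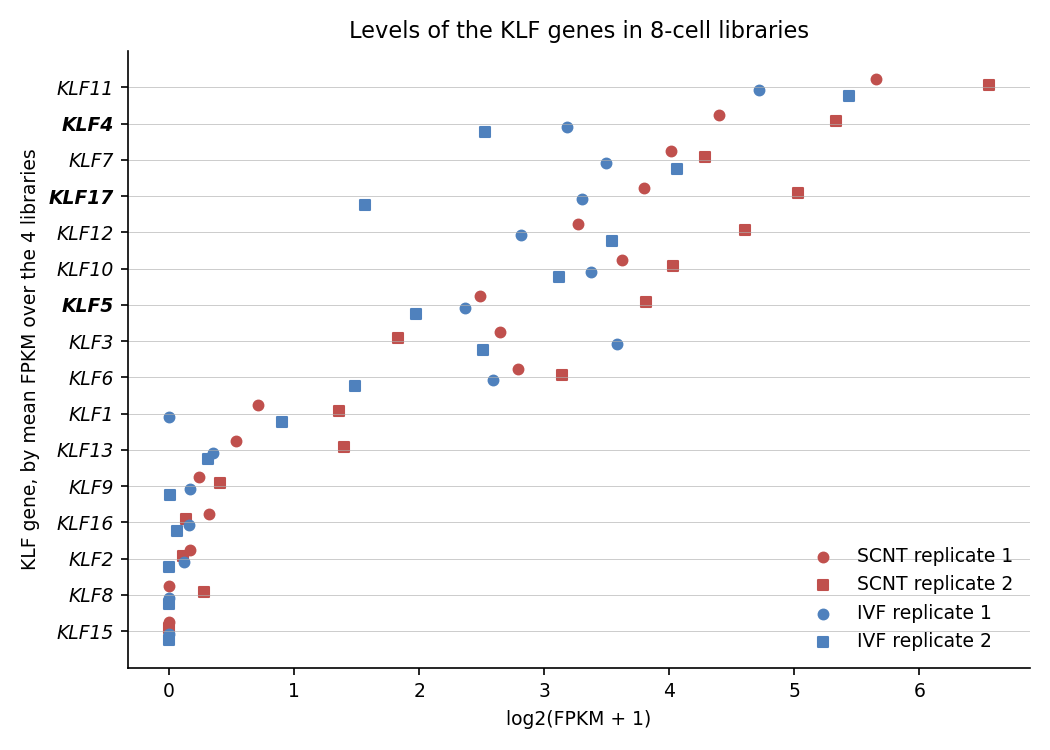
Level of each of the 16 KLF genes, as log2(FPKM + 1), in the SCNT libraries (red) and IVF libraries (blue) of 8-cell embryos, with circles for replicate 1 and squares for replicate 2. Genes are ordered by their mean FPKM. KLF11 is highest in all 4 libraries, and KLF4 is next in both SCNT libraries.

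Of the other KLF genes, 6 reached 1 FPKM in 2 or more libraries and were tested. In limma none passed and none had an unadjusted p under 0.05. The log2 difference was above 0 in 5 of the 6, as in 65.8% of all tested genes. Its median over the 6 was 0.67. KLF11 had the largest of these differences, 1.03 (adjusted p = 0.181). KLF12, a repressor, had 8.62 and 23.3 FPKM in SCNT, against 6.02 and 10.7 FPKM in IVF (0.389). KLF7, known from neuronal development in mouse, had 15.1 and 18.5 FPKM in SCNT, against 10.3 and 15.7 FPKM in IVF (adjusted p = 0.599, with a negative sign after median centring and after quantile normalization). KLF10, a TGF-β-induced gene, had 11.3 and 15.4 FPKM in SCNT, against 9.37 and 7.68 FPKM in IVF (0.399).

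KLF3, which encodes a repressor that recruits CtBP proteins, was the tested KLF gene with a lower mean in SCNT. It had 5.26 and 2.57 FPKM in SCNT replicates 1 and 2, against 11.0 and 4.70 FPKM in IVF replicates 1 and 2, and the groups overlapped (log2 difference −0.80, adjusted p = 0.340). KLF6, the remaining tested gene of the family, named here after its values were seen, had 5.92 and 7.83 FPKM in SCNT, against 5.01 and 1.80 FPKM in IVF (0.250). KLF2, which acts beside KLF4 and KLF5 in mouse embryonic stem cells, did not exceed 0.124 FPKM in any library and was also named after its values were seen. KLF15 was listed at 0 in all 4.

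The SP genes encode the closest relatives of the KLF family and bind similar GC boxes. Of 9 in the table, 6 were tested in limma, none passed, 1 (SP5) had an unadjusted p under 0.05, and the median log2 difference was 0.17. Such a p was found in 3200 of all 10303 tested genes, in either direction. SP5, a Wnt target gene, had 4.23 and 6.89 FPKM in SCNT, against 2.34 and 1.17 FPKM in IVF (adjusted p = 0.114). SP2 had 4.59 and 8.93 FPKM in SCNT, against 1.89 and 3.09 FPKM in IVF (0.162). SP3 had 3.16 and 2.17 FPKM in SCNT, against 5.49 and 5.47 FPKM in IVF (0.226). SP1 and SP4 were tested as well, with adjusted p-values of 0.831 and 0.819, and their differences of 0.16 and 0.17 turned negative after median centring and after quantile normalization.

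**Figure D3:**
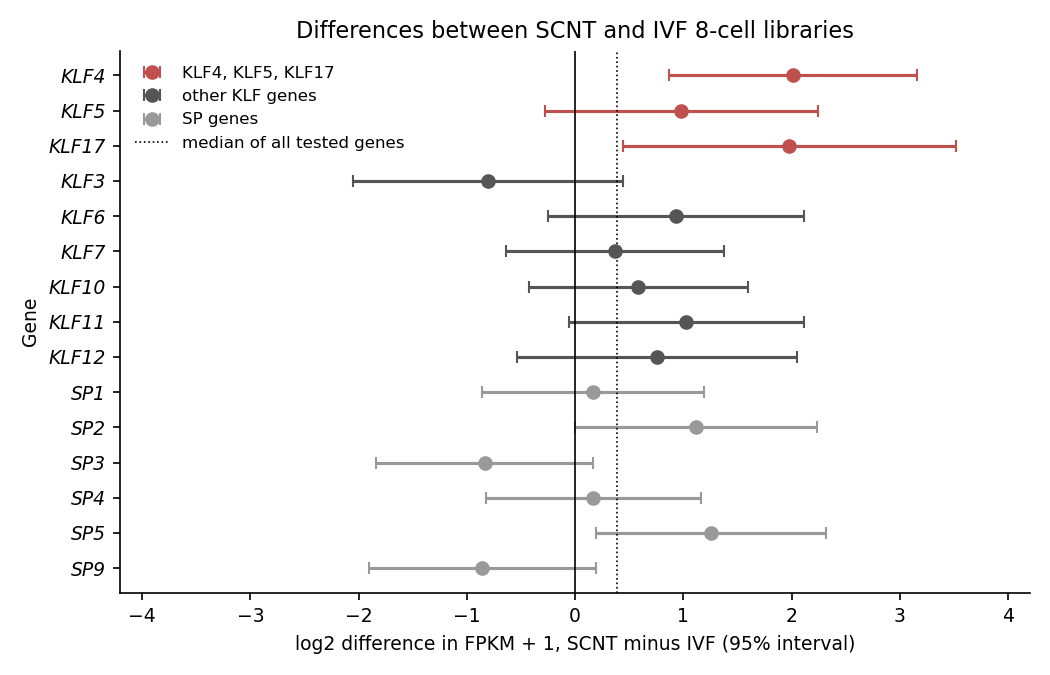
Difference in log2(FPKM + 1), SCNT minus IVF, for KLF4, KLF5 and KLF17 (red), the other tested KLF genes (dark grey) and the tested SP genes (light grey), with 95% limma intervals not adjusted for the number of genes. The dotted line is the median of all tested genes (0.39). The intervals of KLF4 (0.87 to 3.16) and KLF17 (0.44 to 3.52) lie above that line, and the interval of KLF5 spans 0.

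Genes that encode cofactors of KLF proteins or enzymes that control their turnover had a median log2 difference of 0.63. In limma none of the 16 tested passed, with 3 at an unadjusted p under 0.05. Among all 10303 tested genes, 3200 had such a p in either direction. FBXW7, a ubiquitin ligase subunit that marks KLF5 for degradation in human cells, stood at 179 and 212 FPKM in SCNT, against 151 and 159 FPKM in IVF (adjusted p = 0.583, negative after median centring). SIN3A, a corepressor bound by several KLF proteins, stood at 81.2 and 109 FPKM in SCNT, against 33.1 and 51.6 FPKM in IVF (0.108). ITCH, a ubiquitin ligase of the same family as the KLF5 ligase WWP1, stood at 94.2 and 41.7 FPKM in SCNT, against 84.3 and 82.6 FPKM in IVF (0.587).

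In limma 3200 of all 10303 tested genes had an unadjusted p under 0.05, in either direction. Of the 12 tested genes of the pluripotency circuit 3 did and none passed, and the median log2 difference of the 12 was 0.64. The 3 most abundant were DPPA4, STAT3 and LIFR. STAT3, the signal transducer that induces Klf4 in mouse embryonic stem cells, had 45.7 and 43.1 FPKM in SCNT, against 10.2 and 22.1 FPKM in IVF (adjusted p = 0.083). LIFR, a receptor upstream of STAT3, had 25.7 and 8.76 FPKM in SCNT, against 26.9 and 28.3 FPKM in IVF (0.323). DPPA4, a chromatin-associated pluripotency gene, had 22.6 and 39.9 FPKM in SCNT, against 124 and 4.06 FPKM in IVF (0.889), and its difference changed sign with the scaling and the library left out.

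The gap between the IVF libraries seen in KLF17 had the same direction in ARGFX, DUXA and LEUTX, homeobox genes of genome activation. ARGFX had 51.4 and 88.3 FPKM in SCNT replicates 1 and 2, against 497 and 105 FPKM in IVF replicates 1 and 2. IVF replicate 1 was 4.72 times IVF replicate 2 for ARGFX, 6.44 times for DUXA and 1.55 times for LEUTX, beside 4.53 times for KLF17. This direction was not particular to them. Genes of the pluripotency circuit went both ways, with 30.4 times for DPPA4, 6.25 times for NANOG and 0.858 times for POU5F1. NANOG and POU5F1 were named after their values were seen. The share of all tested genes with this direction was not computed, and their median log2 gap was −0.06. Between the groups the 4 tested genome activation genes went both ways, and in limma none of them passed. The 2 with an unadjusted p under 0.05 were ARGFX (log2 difference −1.75) and OTX2 (1.81). Over the whole table, 3200 of 10303 tested genes had such a p, in either direction. OTX2, a homeobox gene named after its values were seen, had 62.5 and 65.4 FPKM in SCNT, against 31.4 and 9.63 FPKM in IVF.

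Of 10 tested genes of the trophectoderm and other early lineages, 2 rose, none fell and 8 did not pass. Their median log2 difference was 0.39, the same as that of all tested genes to 2 decimals. The difference was above 0 in 7 of the 10, as in 65.8% of all tested genes. It was below 0 in YAP1 (−0.26), TFAP2A (−0.09) and PDGFRA (−0.30). EOMES, too low to be tested, had 0.184 and 0.338 FPKM in SCNT, against 1.36 and 0.924 FPKM in IVF. GATA2, GATA6, KRT18 and SPRY4, also too low to be tested, were higher in both SCNT libraries. The genes below 0 or not tested were named after their values were seen. Over the whole table, 3.02% of tested genes rose and 0.844% fell. KRT8, a keratin of trophectoderm and other simple epithelia, had 8.64 and 24.98 FPKM in SCNT replicates 1 and 2, against 2.10 and 0.0367 FPKM in IVF replicates 1 and 2 (log2 difference 3.14, adjusted p = 0.046). KRT8 lost its call without SCNT replicate 2 (adjusted p = 0.130), without IVF replicate 2 (0.136), after quantile normalization (0.0662), with a pseudocount of 0.1 (0.0637) or 5 (0.0924), without a filter (0.242), with the 5 FPKM filter (0.0616) and without a variance trend (0.0505). HAND1, a factor of trophoblast and mesoderm, had 10.3 and 3.73 FPKM in SCNT and was listed at 0 in both IVF libraries (adjusted p = 0.029). A group listed at 0 adds no spread to the fit, so the p of HAND1 can come out too small. HAND1 reached 1 FPKM in the SCNT libraries alone, so the filter fixed its direction. HAND1 lost its call with a pseudocount of 5 and without a filter.

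Markers of other cell types were summed per library, because KLF4 and KLF5 are also expressed in epithelia and fibroblasts. The 7 epithelial markers in the table summed to 23.3 and 40.1 FPKM in SCNT replicates 1 and 2, against 9.33 and 6.89 FPKM in IVF replicates 1 and 2, the same order of libraries as in the 3 KLF genes. Of the 4 tested, KRT8 rose and the other 3 did not pass, and KRT18 and CLDN4 stayed below 0.3 FPKM in every library. CDH1 had 10.01 and 5.93 FPKM in SCNT, against 4.98 and 3.50 FPKM in IVF, KRT5 had 1.19 and 4.62 FPKM in SCNT, against 0.440 and 0.234 FPKM in IVF, and EPCAM had 3.24 and 2.68 FPKM in SCNT, against 1.81 and 3.12 FPKM in IVF. The part of epithelial markers in the KLF values was not tested. The 16 fibroblast markers summed to 102 and 109 FPKM in SCNT, against 136 and 125 FPKM in IVF. This order rested on DCN, the gene of the matrix proteoglycan decorin, with 33.9 and 39.5 FPKM in SCNT, against 94.3 and 85.5 FPKM in IVF. Without DCN, left out after its values were seen, the other 15 summed to 68.3 and 69.1 FPKM in SCNT, against 41.2 and 39.7 FPKM in IVF, so the direction turned. The part of fibroblast markers in the KLF values was not tested. The 10 tested fibroblast markers had a median log2 difference of 0.86, against 0.39 over all tested genes. In 7 of them the difference was above 0, as in 65.8% of all tested genes. Some of them, TIMP1, TAGLN and COL3A1, reached 1 FPKM in the SCNT libraries alone. The filter thus fixed their direction, and the median and counts rest partly on them. COL3A1 was named after its values were seen. Among all tested genes, 3.02% rose. Of these 10 fibroblast markers, TIMP1 and TAGLN rose and 8 did not pass. TIMP1 had 11.2 and 12.9 FPKM in SCNT, against 0.156 and 0.637 FPKM in IVF. TAGLN had 4.85 and 4.94 FPKM in SCNT, against 0.659 and 0.389 FPKM in IVF. Without SCNT replicate 2 neither passed (adjusted p = 0.062 for TIMP1 and 0.0833 for TAGLN), nor without IVF replicate 1 (0.0506 and 0.144), and TAGLN also did not pass without IVF replicate 2 (0.175), after median centring (0.0586) or after quantile normalization (0.0747).

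The 9 cumulus and granulosa markers in the table summed to 60.6 and 93.3 FPKM in SCNT, against 84.3 and 89.9 FPKM in IVF, and none of 4 tested passed in limma or had an unadjusted p under 0.05. FSHR, AMH and INHA were listed at 0 in every library, whereas other markers of the list were present in all of them. STAR had 39.5 and 58.0 FPKM in SCNT, against 42.4 and 38.8 FPKM in IVF, HAS2 had 17.9 and 18.1 FPKM in SCNT, against 20.6 and 29.4 FPKM in IVF, and TNFAIP6 had 1.77 and 14.3 FPKM in SCNT, against 19.5 and 19.8 FPKM in IVF. The part of cumulus and granulosa markers in the KLF values was not tested. The single tested sperm marker, ODF2, had 18.4 and 32.1 FPKM in SCNT, against 7.55 and 11.0 FPKM in IVF (adjusted p = 0.105). The other sperm markers in the table went both ways and were too low to be tested. AKAP4 had 0.153 and 0.0564 FPKM in SCNT, against 0.544 and 0.694 FPKM in IVF. TNP2 had 0.0555 and 0.166 FPKM in SCNT, against 0 and 0.0519 FPKM in IVF. PRM2, PRM3, TNP1 and ODF1 overlapped between the groups. The 3 blood markers in the table summed to at most 1.56 FPKM in a library, and none was tested.

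The genes whose pattern over the 4 libraries was most like that of each KLF gene were found by the Euclidean distance between log2(FPKM + 1) profiles, each centred on its own mean, among 8619 protein-coding genes with a symbol. For KLF4 these were DDX27, an RNA helicase gene (distance 0.0839), UPK1A (0.194) and TM4SF1 (0.203). DDX27 had 8.48 and 18.6 FPKM in SCNT, against 3.12 and 1.72 FPKM in IVF. For KLF5 they were SPRYD4 (0.0409), the potassium channel gene KCNJ15 (0.0511) and NOX5 (0.0583).

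For KLF17 the most similar were RPS26, a ribosomal protein gene (0.254), PROCR (0.290) and HAX1 (0.313). RPS26 had 20.8 and 43.1 FPKM in SCNT, against 15.8 and 3.82 FPKM in IVF; ribosomal protein genes have near-identical copies, so its reads may be split between entries. Within a distance of 0.5 lay 4 genes for KLF17, 89 for KLF4 and 380 for KLF5. Profiles were centred but not scaled, so these counts also depend on how widely a gene varied between libraries. On the log2 scale KLF17 ran from 1.57 to 5.03, KLF4 from 2.53 to 5.34 and KLF5 from 1.97 to 3.82. The counts therefore do not show that the shape of the KLF17 pattern was unusual. KLF4 was the 31st nearest gene to KLF17, and KLF17 the 520th nearest to KLF4. With 4 libraries such likeness is a description of these libraries only.

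Neighbouring genes were taken from the gene order of the RefSeq goat annotation (assembly ARS1.2). The build behind the deposited values is not stated in the sources used here, and coordinates are left out. PIBF1, the nearest gene on one side of KLF5, had 21.6 and 13.1 FPKM in SCNT, against 35.1 and 39.5 FPKM in IVF, the opposite direction to KLF5 (log2 difference −1.10, adjusted p = 0.131). Near KLF4, within 5 genes, the annotated lncRNAs LOC108636580 and LOC108636648 had values at both stages. LOC108636580 had 0.163 and 0.243 FPKM in SCNT 8-cell libraries, against 0.840 and 0.913 FPKM in IVF 8-cell libraries, and 0.719 and 0.0792 FPKM in SCNT 4-cell libraries, against 0 and 0.0805 FPKM in IVF 4-cell libraries. LOC108636648 was above 0 in 1 library, IVF 8-cell replicate 1, at 0.266 FPKM. These levels stayed below 1 FPKM and were not tested.

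The plot of settings shows how each of the 3 differences moved when a choice was changed. KLF4 stayed above 0 in all 14 settings, between 1.52 and 2.48, and passed in 3 of them. These were rescaling, the fit without SCNT replicate 1, which rests on a single SCNT library, and a replicate block. The block treats equal replicate numbers as a pair, which the labels do not say. KLF17 stayed above 0 in all 14 settings, between 1.11 and 2.85, and passed in 1, the replicate block. KLF5 stayed above 0 in all 13 settings in which it was tested, between 0.32 and 1.65, and passed in 1, without SCNT replicate 1.

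**Figure D4:**
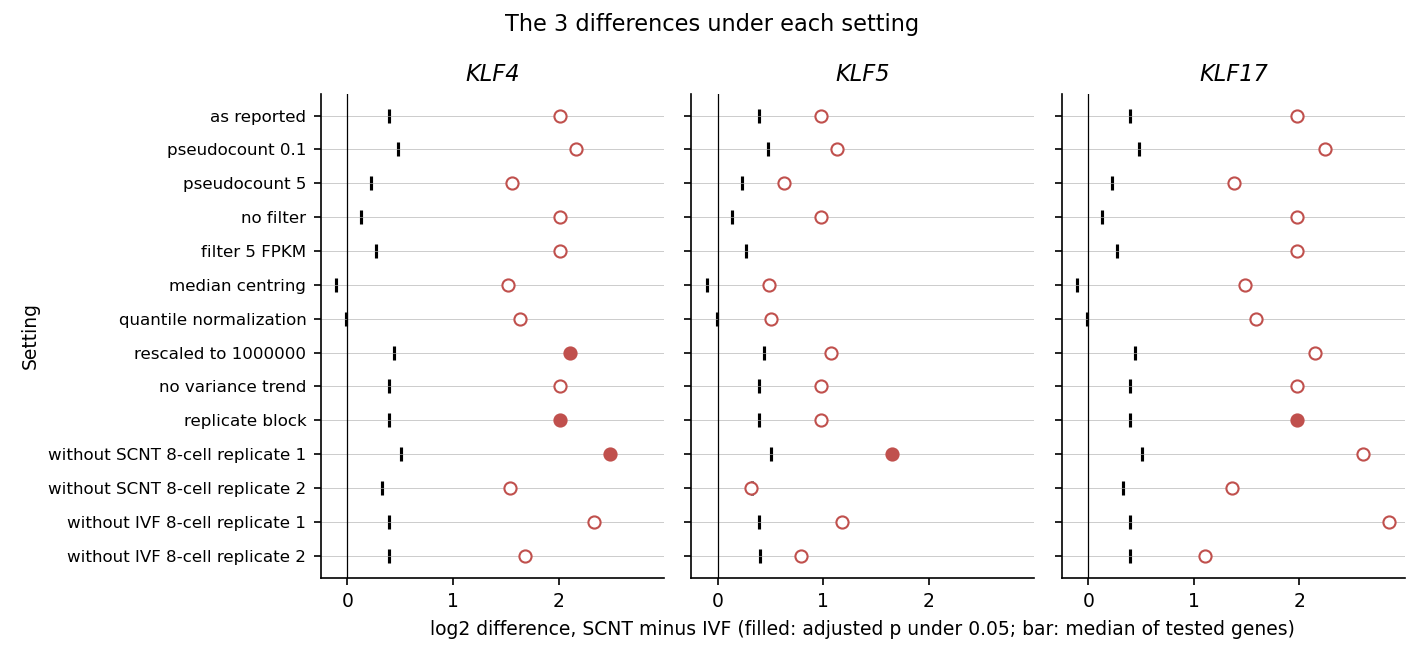
Log2 difference, SCNT minus IVF, of KLF4, KLF5 and KLF17 as reported and under each of 13 other settings (rows). Filled circles passed an adjusted p of 0.05, open circles did not, and the short black bars give the median of all tested genes in that setting. KLF5 has no circle for the filter at 5 FPKM because it was not tested there, and its circle without SCNT replicate 2 (0.32) lies at the median.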

How the data were processed

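The authors deposited FPKM values, 1 column per library, for messenger RNAs at the 8-cell stage and for lncRNAs at the 4- and 8-cell stages. Per the submitters' processing notes, fastp, HISAT2 2.2.1 and HTSeq were used; roles, genome build, annotation and the scaling total are not stated in the sources used here. FPKM are not counts, so limma 3.58.1 (R 4.3.3; lmFit, eBayes with a variance trend) was run on log2(FPKM + 1) of genes that reached 1 FPKM in 2 or more of the 4 libraries, without pairing, two-sided, with Benjamini-Hochberg adjustment over all 10303 tested genes. The code was tested on simulated data. Annotated lncRNA IDs were paired with names by identical 8-cell values. Numbered lncRNAs were not used.

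Genes named from a list were those that passed, or else the 3 most abundant tested ones (5 for the KLF and SP lists). For likeness, the 3 nearest genes were named. The members and lists were chosen with earlier results of these data known. The alternatives were other pseudocounts, filters, scalings and variance models, a replicate block, and leaving out each library.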

Additional observations from a re-analysis of the deposited data

How the results depend on the processing

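KLF4, KLF5 and KLF17 kept their positive direction under every alternative run, and the calls that were gained came with these settings. With the replicate block, KLF4 (log2 difference 2.01, adjusted limma p = 0.0208) and KLF17 (1.98, 0.0446) passed, as did STAT3 (0.0467), and 1924 genes passed instead of 398; the labels do not say that equal numbers mark a pair, and the replicate deviations of SCNT and IVF correlated at 0.12 over tested genes. Rescaling gave 2.11 for KLF4 (adjusted p = 0.0297), with 1327 genes called (1133 higher, 194 lower). The count of called genes was 9 with a pseudocount of 5, 133 with the 5 FPKM filter, and 0 without a filter, where 3661 genes had an unadjusted p under 0.05. Calls were 311 higher and 87 lower as reported, 158 and 238 after median centring, and 121 and 150 after quantile normalization.

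Leaving out a library gave log2 differences of 1.54 to 2.48 for KLF4, 0.32 to 1.65 for KLF5 and 1.11 to 2.85 for KLF17. The count of called genes ranged from 46 without SCNT replicate 2 to 3834 without SCNT replicate 1; it was 173 and 257 without IVF replicates 1 and 2. Of the other KLF and SP genes, 0 to 2 passed; the 2, without SCNT replicate 1, were KLF11 and SP2. Among the other named genes, LIFR (adjusted p = 0.0206), ODF2 (0.0258), ITCH (0.0315) and SIN3A (0.0348) passed without SCNT replicate 1, and ARGFX (0.0279) without IVF replicate 2. The KLF17 to KLF4 ratio reversed to 0.077 with a pseudocount of 0.1 and to 0.033 after rescaling, and ranged from −0.58 to 0.51 without single libraries.

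Genes that did not pass and changed sign after median centring were KLF7 (−0.12), SP1 (−0.33), SP4 (−0.32), FBXW7 (−0.17), DPPA4 (−0.19) and STAR (−0.26), and after quantile normalization KLF7 (−0.014), SP1 (−0.37) and SP4 (−0.36). Without single libraries, SP1 ranged from −0.076 to 0.41, SP4 from −0.11 to 0.45, DPPA4 from −2.003 to 2.62, STAR from −0.036 to 0.50, ITCH from −0.99 to 0.17, LEUTX from −1.53 to 0.11 and DUXA from −1.94 to 0.72. The cause of these changes was not tested.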
